A study of Mus musculus with 2 samples.

Results

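The genes described here make cholesterol, sense it and move it between and within cells. They were chosen by symbol, from knowledge of the pathway, and all 30 were found among the 19059 genes counted in both libraries. By role, 18 are synthesis enzymes, 5 are regulators and 7 serve transport and storage. The samples were dorsal root ganglia of the mouse neck, the clusters of sensory nerve cells beside the spinal cord, from mice given imiquimod for 3 days, which inflames the skin. In the Treg_Penk_KO library the mice carried Foxp3 CreER and Penk fl/fl, and in the control library littermates carried Foxp3 CreER and Penk fl/WT. Mice of both genotypes received tamoxifen and imiquimod, so the control also carried the Cre and 1 floxed Penk allele. Foxp3 drives the Cre, so the deletion of Penk, the precursor of the enkephalin opioid peptides, is aimed at regulatory T cells and not at the neurons or glia described below. Each library pooled ganglia, and the sources used here give neither the number of mice nor their age or sex.

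Cells make cholesterol from acetyl-CoA through mevalonate, farnesyl diphosphate and squalene to lanosterol, and then trim lanosterol through a series of sterols. The transcription factor SREBP-2, encoded by Srebf2, switches on most of these enzymes when the membranes of the endoplasmic reticulum hold little sterol. SCAP escorts it to the Golgi for activation, and the INSIG proteins hold it back when sterol is plentiful. In nervous tissue much cholesterol is made locally by glia, and apolipoprotein E, loaded through ABCA1, carries lipid from glia to other cells. Satellite glia wrap the cell bodies of sensory neurons.

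The deposited unique molecule (UMI) counts came from a probe-based assay of fixed cells, so a level is compared here for 1 gene between cell classes or libraries and never between genes. Levels are CPM, the UMIs of a gene per 1000000 UMIs summed over the cells of a class in a library. Each genotype has 1 library, so no difference between them could be checked against replicates or tested, and each interval given is a 95% interval for counting error only. The Treg_Penk_KO library held 156441497 UMIs in 12067 barcodes with a median of 2243 UMIs, and the control library held 259136217 UMIs in 15710 barcodes with a median of 2481. Penk itself had 4 UMIs in the cells kept from the Treg_Penk_KO library and 582 in those from the control library. In cells named neurons it had 1 UMI in Treg_Penk_KO and 340 in control, the latter in 111 cells. Which cells made this RNA, and why the libraries differed in it, was not tested. The libraries had 4723 droplet barcodes in common, and the median enzyme ratios and the ratio of Apoe are also given in droplets found in 1 library only.

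Cells were clustered without the 30 genes, and clusters were named from markers as neurons or as cells like satellite glia, myelinating and non-myelinating Schwann cells, fibroblasts, endothelial cells, mural cells or macrophages. Neurons numbered 5205 in the Treg_Penk_KO library and 6712 in the control library. Satellite glia-like cells numbered 1334 in Treg_Penk_KO and 1818 in control. Neuron markers were present in all 7 other classes, at 32.0% to 54.8% of their level in neurons in the Treg_Penk_KO library and at 33.4% to 57.8% in the control library. The neuron-marker share was lowest in satellite glia-like cells in both libraries. Whether free RNA or attached neurons carried these markers was not tested.

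Most of the cholesterol genes were highest in satellite glia-like cells. Of the 30 members, 24 had their highest CPM of the 8 classes there in the Treg_Penk_KO library and 25 in the control library, and 27 had the same highest class in both libraries. Of the 18 synthesis enzymes, 17 were highest there in both libraries, and the exception was Acat2. This is a description, since satellite glia-like cells were set apart from neurons by clustering the same cells on other genes. The share of all genes that were highest in this class is not given, so how unusual these counts are cannot be said.

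Enzymes of the early mevalonate steps showed it unevenly. Acat2, which joins acetyl-CoA units, was highest in neurons, with 141 CPM in the Treg_Penk_KO library and 138 CPM in the control library. Hmgcs1 (ENSMUSG00000093930, GRCm39 chr13:120151915-120170470, plus strand), which makes HMG-CoA, reached 1957 CPM in Treg_Penk_KO and 1933 CPM in control satellite glia-like cells. In neurons Hmgcs1 had 792 CPM in the Treg_Penk_KO library and 765 CPM in the control library. The gap was thus more than 2-fold in each for the satellite glia-like class as a whole. Mvk, mevalonate kinase, had 139 CPM in Treg_Penk_KO and 134 CPM in control satellite glia-like cells, close to its 99.6 CPM in Treg_Penk_KO and 98.4 CPM in control neurons. Pmvk, Mvd and Idi1, the next enzymes in line, and the farnesyl diphosphate synthase Fdps were likewise less than 2-fold higher than in neurons, as were Fdft1, which makes squalene, and the later enzyme Ebp.

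From squalene onward 9 of 10 enzymes in Treg_Penk_KO and 8 of 10 in control were at least 2-fold higher in satellite glia-like cells than in neurons. For the steps up to squalene it was 1 of 8 in each library, Hmgcs1. Of all genes, 20.2% in Treg_Penk_KO and 20.8% in control were that much higher, and 1 of 8 is near that share. Ebp was below 2-fold in both libraries, and Hsd17b7 was at 2.13-fold in Treg_Penk_KO and 1.99-fold in control. Sqle, squalene epoxidase, had 664 CPM in Treg_Penk_KO and 602 CPM in control satellite glia-like cells, against 291 CPM in Treg_Penk_KO and 273 CPM in control neurons. Lss, which closes the ring to lanosterol, had 189 CPM in Treg_Penk_KO and 198 CPM in control satellite glia-like cells, against 29.6 CPM in Treg_Penk_KO and 36.9 CPM in control neurons. Cyp51, the lanosterol demethylase, had 408 CPM in Treg_Penk_KO and 377 CPM in control satellite glia-like cells, against 102 CPM in Treg_Penk_KO and 100.02 CPM in control neurons. Lss and Cyp51 thus had the widest satellite-to-neuron gaps among the enzymes. Msmo1, the methylsterol oxidase, reached 517 CPM in Treg_Penk_KO and 489 CPM in control satellite glia-like cells. The late enzymes Dhcr7 (373 CPM in Treg_Penk_KO, 348 CPM in control), Sc5d (307 CPM in Treg_Penk_KO, 269 CPM in control) and Nsdhl (252 CPM in Treg_Penk_KO, 222 CPM in control) were also more than 2-fold above neurons in both libraries, as was the sterol reductase Tm7sf2 (209 CPM in Treg_Penk_KO, 197 CPM in control).

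Regulators followed the enzymes in part. Srebf2 had 679 CPM in Treg_Penk_KO and 680 CPM in control satellite glia-like cells, and 335 CPM in Treg_Penk_KO and 333 CPM in control neurons. Insig1, whose product retains SREBP and which is itself an SREBP target, had 653 CPM in Treg_Penk_KO and 703 CPM in control satellite glia-like cells, against 200.01 CPM in Treg_Penk_KO and 214 CPM in control neurons. Both genes were next highest in non-myelinating Schwann-like cells in both libraries. Srebf1, whose product favours fatty acid genes, was about equally high in satellite glia-like cells (223 CPM in Treg_Penk_KO, 208 CPM in control) and non-myelinating Schwann-like cells (222 CPM in Treg_Penk_KO, 255 CPM in control). Scap had its highest level, 110 CPM in Treg_Penk_KO and 99.9 CPM in control, in satellite glia-like cells. The highest level of Insig2, in mural-like cells, with 89.4 CPM in Treg_Penk_KO and 69.4 CPM in control, rested on 12 UMIs in the Treg_Penk_KO library and 17 in the control library.

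Transport genes had the steepest and the most varied class patterns. Apoe (ENSMUSG00000002985, GRCm39 chr7:19430034-19434947, minus strand) had 26672 CPM in Treg_Penk_KO and 28627 CPM in control satellite glia-like cells, against 783 CPM in Treg_Penk_KO and 1062 CPM in control neurons. Npc1, which exports cholesterol from lysosomes, had 209 CPM in Treg_Penk_KO and 195 CPM in control satellite glia-like cells, against 30.0 CPM in Treg_Penk_KO and 30.7 CPM in control neurons. Its soluble partner Npc2 was highest instead in macrophage-like cells, with 384 CPM in Treg_Penk_KO and 363 CPM in control. Lrp1, an endocytic receptor for apolipoprotein E, was highest in fibroblast-like cells, with 1222 CPM in Treg_Penk_KO and 1009 CPM in control, and lowest in neurons, with 35.5 CPM in Treg_Penk_KO and 37.3 CPM in control. Soat1, which esterifies cholesterol for storage, had 83.6 CPM in Treg_Penk_KO and 70.6 CPM in control satellite glia-like cells, against 14.7 CPM in Treg_Penk_KO and 15.8 CPM in control neurons. The lipid exporter Abca1 was about equally high in satellite glia-like cells (201 CPM in Treg_Penk_KO, 161 CPM in control) and non-myelinating Schwann-like cells (205 CPM in Treg_Penk_KO, 161 CPM in control). Abcg1, the related exporter, had 79.3 CPM in Treg_Penk_KO and 68.6 CPM in control satellite glia-like cells, and its higher Treg_Penk_KO level in mural-like cells, 96.8 CPM, rested on 13 UMIs.

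Set against neurons, satellite glia-like cells were at least 2-fold higher for 20 of the 30 members in the Treg_Penk_KO library and for 19 in the control library. Among all genes compared in the same way, 20.2% in the Treg_Penk_KO library and 20.8% in the control library were that much higher. The median member ratio was 2.495 in Treg_Penk_KO and 2.37 in control, and the median of all genes was 0.957 in Treg_Penk_KO and 0.972 in control. By role, at least 2-fold higher levels were found for 10 enzymes in Treg_Penk_KO and 9 in control, for 3 regulators in each, and for all 7 transport and storage genes in each. Subtracting the neuronal share, as estimated from the neuron markers, put satellite glia-like Hmgcs1 at 2505 CPM in Treg_Penk_KO and 2518 CPM in control, and Apoe at 38842 CPM in Treg_Penk_KO and 42445 CPM in control. The satellite glia-like class joined a shallow and a deep cluster. The deep cluster held 153 of 1334 cells and 2799767 of 4260286 UMIs in Treg_Penk_KO. In control it held 231 of 1818 cells and 4680145 of 6557698 UMIs. Hmgcs1 was higher in the deep cluster (2242 CPM in Treg_Penk_KO, 2162 CPM in control). It had 1411 CPM in Treg_Penk_KO and 1362 CPM in control in the shallow cluster, less than 2-fold above neurons in each library. Sqle differed less between them (deep 661 CPM in Treg_Penk_KO, 607 CPM in control, shallow 669 CPM and 591 CPM). Fdft1 was lower in the deep cluster (634 CPM in Treg_Penk_KO, 626 CPM in control, shallow 782 CPM and 767 CPM).

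**Figure D1:**
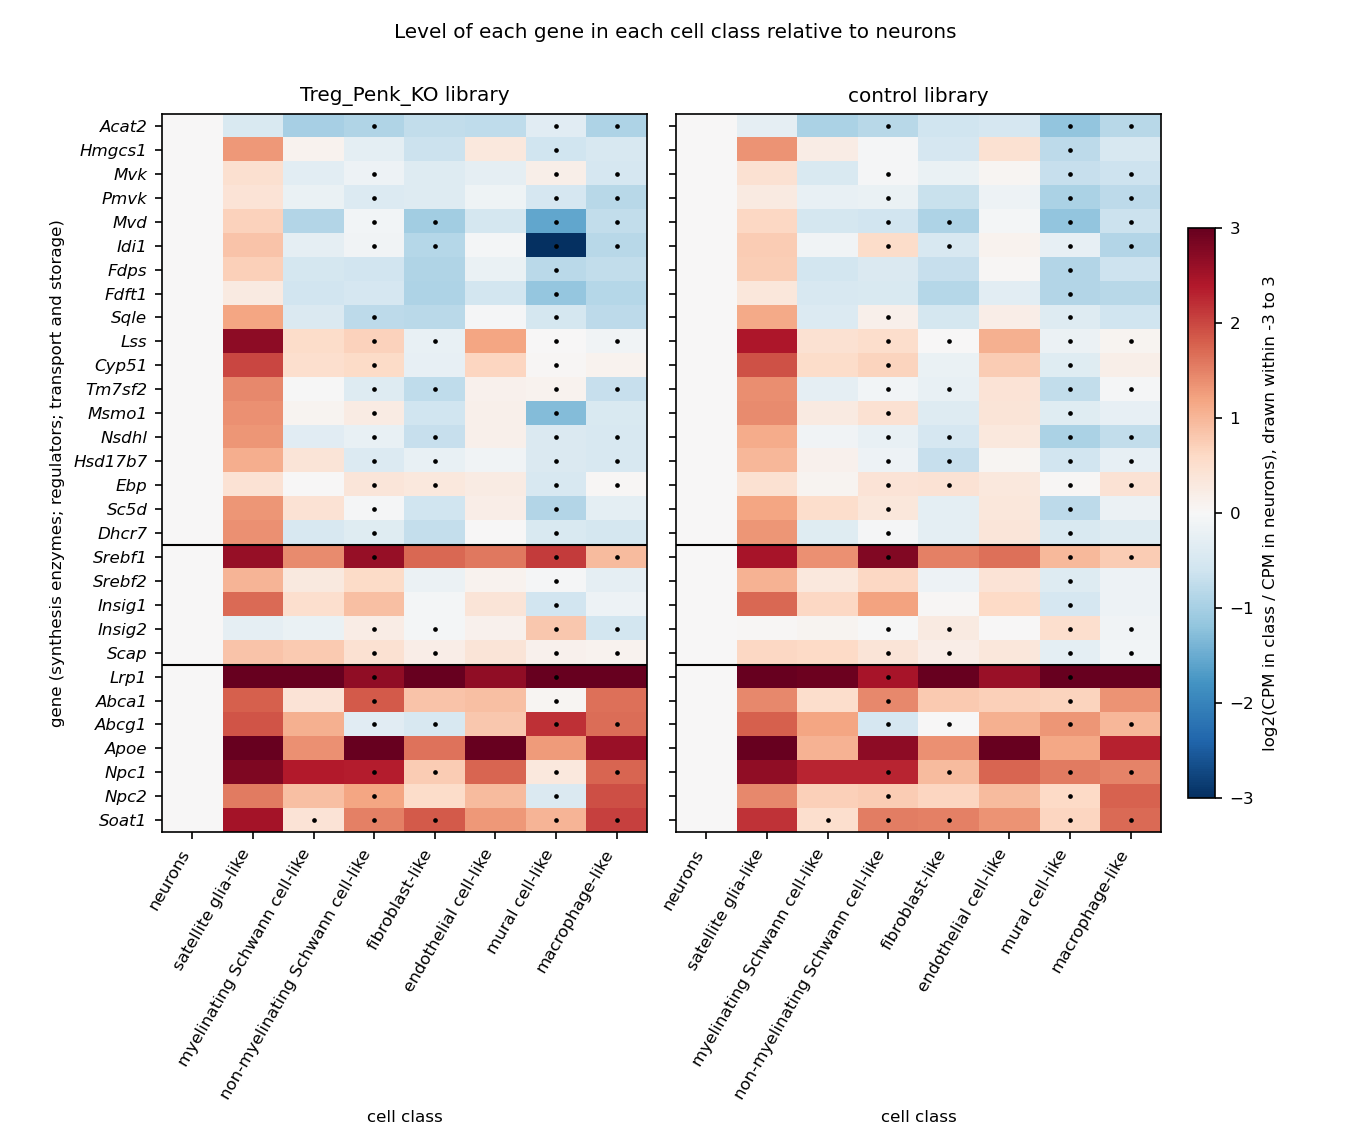
Each square is a member's CPM in a cell class as a log2 ratio over its CPM in neurons, clipped at -3 and 3, with the Treg_Penk_KO library on the left and the control library on the right; a black dot marks a pair with under 200 UMIs over both libraries. In both panels the satellite glia column is raised for 17 of the 18 enzymes, all but Acat2, and for all 7 transport and storage genes, while Npc2 is most raised in macrophages.

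Short stretches of promoter are shown for the members whose promoter held the letters TCACNCCA, a core form of the sterol regulatory element that SREBP proteins bind. Promoter windows of 250 bases before to 50 bases after the gene start were taken from RefSeq (GRCm38.p6), which had an entry for 25 of the 30 members, and both strands were searched. The letters TCACNCCA were found in 4 of those 25 promoters, against 4.97% of 27025 promoters of all genes. They are in capitals in the stretches of Hmgcs1 (GRCm38.p6 chr13:119690174-119690261, plus strand), Msmo1 (chr8:64733708-64733795, minus strand), Srebf2 (chr15:82147067-82147154, plus strand) and Apoe (chr7:19699354-19699438, minus strand), each printed 5′ to 3′ along the gene's strand.
Hmgcs1: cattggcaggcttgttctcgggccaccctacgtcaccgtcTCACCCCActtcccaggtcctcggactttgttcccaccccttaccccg
Msmo1: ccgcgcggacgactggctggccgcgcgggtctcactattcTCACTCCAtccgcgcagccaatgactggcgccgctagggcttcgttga
Srebf2: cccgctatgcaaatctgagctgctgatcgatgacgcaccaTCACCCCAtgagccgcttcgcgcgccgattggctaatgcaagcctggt
Apoe: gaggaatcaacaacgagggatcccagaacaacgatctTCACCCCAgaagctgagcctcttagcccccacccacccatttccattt
The letters CCAAT, a box bound by NF-Y, were found on either strand in 14 of 15 enzyme promoters and in 20 of 25 member promoters, against 41.1% of all promoters. The letters CCA that end the first motif can also begin CCAAT, so the motifs may overlap, and a match is only a match of letters in this window.

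Neurons were split into 9 marker-named subtypes. In summed UMIs, most synthesis enzymes and Srebf2 were highest in Mrgprd nonpeptidergic-like neurons, whose free endings reach the skin. Most enzymes and Srebf2 were lowest in Pvalb-expressing proprioceptor-like neurons, which report muscle stretch. Mrgprd-like neurons had the highest CPM for 12 of the 18 enzymes in the Treg_Penk_KO library and 13 in the control library. Proprioceptor-like neurons had the lowest CPM for 12 enzymes in Treg_Penk_KO and 13 in control. In cells thinned to 500 UMIs they were lowest for only 7 enzymes in Treg_Penk_KO and 8 in control. Mrgprd-like neurons were then highest for 11 in Treg_Penk_KO and 12 in control. The share of all genes highest or lowest in these subtypes is not given. The Mrgprd-like level was above the proprioceptor-like level for 18 of 18 enzymes in each library, against 49.6% of all genes in Treg_Penk_KO and 48.6% in control. The median enzyme ratio was 2.84 in Treg_Penk_KO and 2.75 in control. At least 2-fold higher levels were found for 14 enzymes in Treg_Penk_KO and 13 in control, against 12.6% of all genes in Treg_Penk_KO and 12.2% in control.

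The product of Fdps feeds both sterols and protein prenylation. Fdps had 830 CPM in Mrgprd-like neurons and 202 CPM in proprioceptor-like neurons of the Treg_Penk_KO library, and 835 CPM and 204 CPM in the same subtypes of the control library. Mvd, the decarboxylase that makes isopentenyl diphosphate, had the widest range over subtypes among the enzymes. In Mrgprd-like neurons it had 126 CPM in Treg_Penk_KO and 137 CPM in control, and in proprioceptor-like neurons 27.5 CPM in Treg_Penk_KO and 28.2 CPM in control. Acat2 had 273 CPM in Treg_Penk_KO and 275 CPM in control Mrgprd-like neurons, and 78.9 CPM in Treg_Penk_KO and 81.1 CPM in control proprioceptor-like neurons. Srebf2 had 531 CPM in Treg_Penk_KO and 572 CPM in control Mrgprd-like neurons, and 189 CPM in Treg_Penk_KO and 198 CPM in control proprioceptor-like neurons.

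Some enzymes had another order. Lss was highest in Trpm8 cold-like neurons, with 48.6 CPM in Treg_Penk_KO and 76.4 CPM in control. Hsd17b7, a sterol ketoreductase, was highest in peptidergic A-fibre-like neurons, with 94.6 CPM in Treg_Penk_KO and 102 CPM in control. Pmvk, Cyp51 and Nsdhl were highest in C-LTMR-like neurons, the C-fibre touch receptors, in both libraries. Fdft1 was highest in Sst/Nppb-like itch neurons in Treg_Penk_KO, with 915 CPM there and 870 CPM in Mrgprd-like neurons, and in Mrgprd-like neurons in control, with 885 CPM there and 864 CPM in Sst/Nppb-like neurons.

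The summed CPM of the 18 enzymes was 5509 in Treg_Penk_KO and 5581 in control Mrgprd-like neurons, and 2094 in Treg_Penk_KO and 2127 in control proprioceptor-like neurons. Peptidergic C-like neurons were next to the top among the 9 named subtypes, with 4506 in Treg_Penk_KO and 4347 in control. An unnamed neuron cluster of 140 Treg_Penk_KO and 18 control cells lay between them, with 4786 in Treg_Penk_KO and 4509 in control. A neuron cluster led by Slc17a7 and Lgi2 that no marker list named was lower than the proprioceptor-like neurons, with 1737 in Treg_Penk_KO and 1757 in control. Summed satellite glia markers were 175 CPM in Treg_Penk_KO and 186 CPM in control Mrgprd-like neurons, 796 CPM in the proprioceptor-like neurons of each library, and 157 CPM in Treg_Penk_KO and 164 CPM in control cells of the Slc17a7 and Lgi2 cluster. That cluster was therefore low in enzymes and in satellite markers alike. The proprioceptor-like subtype joined unlike clusters. Its largest cluster, 606 Treg_Penk_KO and 788 control cells, had satellite markers of 138 CPM in Treg_Penk_KO and 107 CPM in control. Hmgcs1 in that cluster had 401 CPM in Treg_Penk_KO and 397 CPM in control. In the other clusters of the subtype, satellite markers were 500 and 1715 CPM in Treg_Penk_KO and 805 and 1400 CPM in control. Hmgcs1 there had 618 and 701 CPM in Treg_Penk_KO and 699 and 681 CPM in control, in the same order. With every cell weighted equally the median enzyme ratio of Mrgprd-like over proprioceptor-like neurons was 2.42 in Treg_Penk_KO and 2.45 in control. In cells thinned to 500 UMIs it was 2.36 in Treg_Penk_KO, with 17 of 18 enzymes above 1, and 2.69 in control, with 18 of 18 above 1.

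The genes whose order over the 9 subtypes was most like that of Srebf2 were Fdps, Idi1 and Ebp. Spearman's rho with Srebf2 was 0.95 in Treg_Penk_KO and 0.95 in control for Fdps, 0.95 in Treg_Penk_KO and 0.93 in control for Idi1, and 0.92 in Treg_Penk_KO and 0.90 in control for Ebp, a sterol isomerase. For Apoe it was -0.42 in Treg_Penk_KO and -0.43 in control. Subtypes within a library share 1 pool of dissociated tissue, and these values only describe the order. Among transport genes, Abca1 ranged from 17.6 CPM in A-delta LTMR-like neurons to 95.5 CPM in Mrgprd-like neurons in Treg_Penk_KO, and had 21.4 CPM and 88.4 CPM in those subtypes in control.

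**Figure D2:**
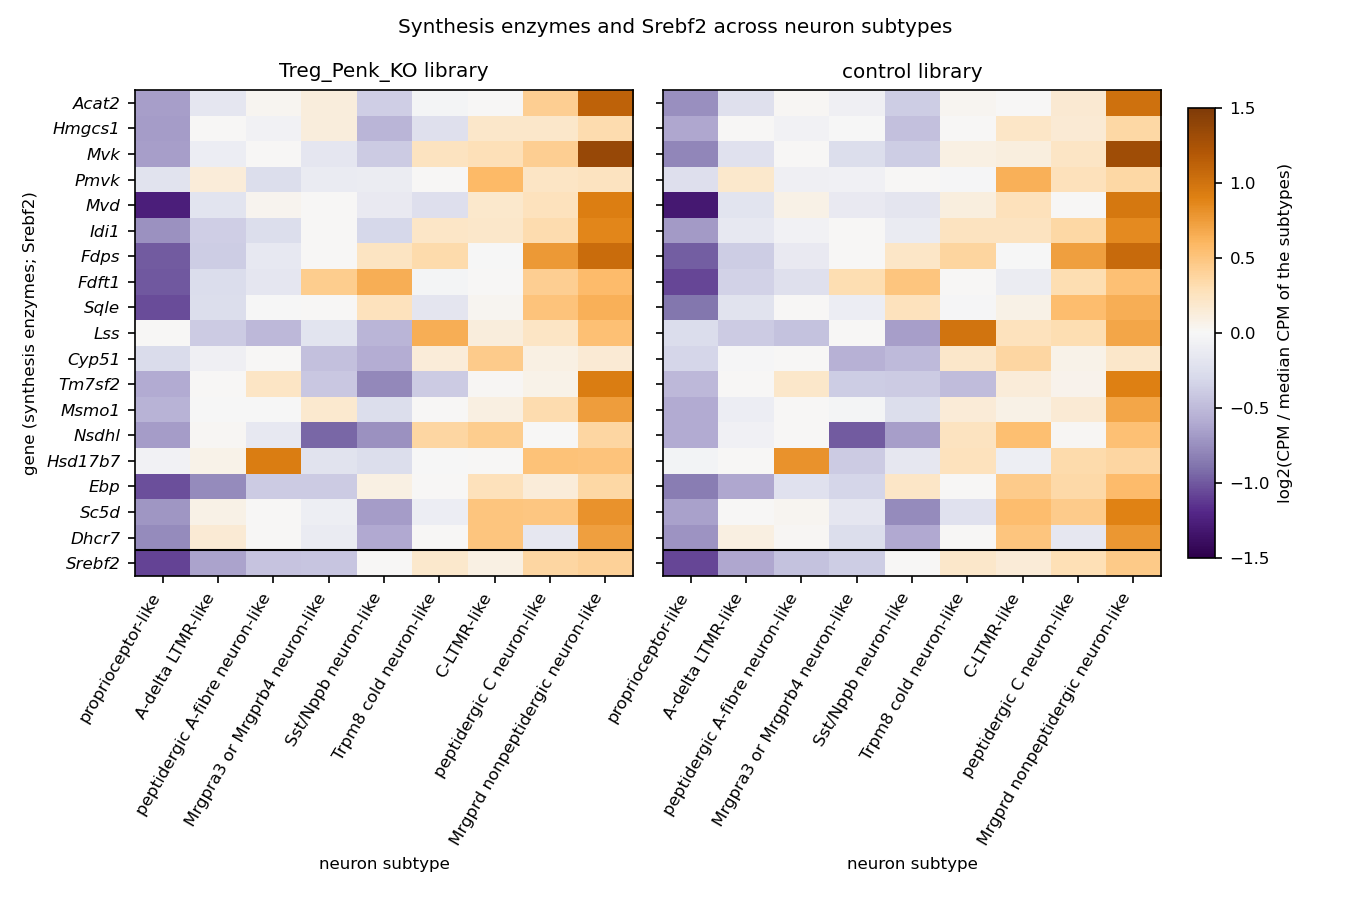
Each square is the CPM of an enzyme or of Srebf2 in a neuron subtype as a log2 ratio over its median across the 9 subtypes, with Treg_Penk_KO on the left and control on the right. The Mrgprd column is raised and the proprioceptor column lowered in both panels, most of all for Mvd, Mvk and Fdps.

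Between the genotypes, few members differed by a set step in any class. A pair of member and class was compared where it held at least 200 UMIs over both libraries, and a ratio of Treg_Penk_KO over control of at most 0.8, or of at least the inverse of 0.8, was counted as past the step. Of 158 such pairs over the 8 classes, 1 was higher and 6 were lower in Treg_Penk_KO by that step. These pairs fell in 6 classes, and all but Apoe in neurons rested on under 1000 UMIs. Satellite glia-like cells had 0 of 30 members past the step, against 5.13% of all their genes, and macrophage-like cells 0 of 14, against 12.4% of all genes.

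In neurons, 1 of 30 members was past the step, against 5.32% of all genes in either direction. It was Apoe, which is taken up below. Of the 18 enzymes, 15 were slightly higher in Treg_Penk_KO neurons, with a median ratio of 1.03, against 48.1% of all genes above 1 and a median over all genes of 0.997. Idi1 had the highest of these ratios, with 69.3 CPM in Treg_Penk_KO and 63.2 CPM in control neurons. Msmo1 had 200.2 CPM in Treg_Penk_KO and 183 CPM in control neurons, a ratio of 1.09. When the 9 subtypes were weighted equally the median enzyme ratio was 1.004, and in droplets of 1 library only it was 1.03. The subtypes made up different shares of the libraries, and proprioceptor-like neurons, the lowest of the 9 named subtypes in summed enzymes, gave 19.3% of neuronal UMIs in Treg_Penk_KO and 26.0% in control.

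In satellite glia-like cells, 23 of 30 members and 15 of 18 enzymes were above 1, against 48.4% of all genes, with medians of 1.06 for members, 1.05 for enzymes and 0.996 for all genes. Abca1 came nearest to the step, with 201 CPM in Treg_Penk_KO and 161 CPM in control and a ratio of 1.247. In droplets of 1 library only the median enzyme ratio was 1.07. The summed satellite glia markers were also higher in these cells, 9731 CPM in Treg_Penk_KO and 8391 CPM in control, with 7 of 8 markers higher. Neuron markers were lower for 9 of 10 genes, 4219 CPM in Treg_Penk_KO and 4384 CPM in control. The part of these markers in the result was not tested. Insig1, Apoe and Lss were among the 7 members below 1. An unnamed cluster of mixed glial markers, left out of this class, had median ratios of 1.002 for members and 1.006 for enzymes. In it 17 of 30 members and 12 of 18 enzymes were above 1, against 5676 of 11113 genes. Its neuron markers stood at 70.7% of their level in neurons in Treg_Penk_KO and 72.2% in control.

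In endothelial-like cells the members lay on the other side. Of 30 members 27 were lower in Treg_Penk_KO, and of 18 enzymes 17 were, against 49.0% of all genes below 1. The median ratio was 0.916 for members, 0.897 for enzymes and 1.00 for all genes. Past the step was 1 of 30 members, against 5.01% of all genes in either direction. It was Mvd, with 45.6 CPM in Treg_Penk_KO and 62.9 CPM in control, a ratio of 0.726 with a counting interval of 0.625 to 0.842. Srebf2 had 359 CPM in Treg_Penk_KO and 441 CPM in control (ratio 0.815), and Dhcr7 had 145 CPM in Treg_Penk_KO and 179 CPM in control (0.810). Insig1 had 262 CPM in Treg_Penk_KO and 326 CPM in control, a ratio of 0.804.

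Markers of other cells moved in these endothelial-like cells too. Of 11 myelin markers 10 were lower, and they summed to 6593 CPM in Treg_Penk_KO and 7455 CPM in control. Red cell markers summed to 61.4 CPM in Treg_Penk_KO and 204 CPM in control. Neuron markers summed to 6530 CPM in Treg_Penk_KO and 6374 CPM in control, and satellite glia markers to 3873 CPM in Treg_Penk_KO and 3871 CPM in control. The median enzyme ratio was 0.952 in droplets found in 1 library only, 0.954 in cells thinned to 500 UMIs and 0.986 when cells were clustered at a Leiden resolution of 0.5. The part of these markers in the lower enzyme levels was not tested.

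In myelinating Schwann-like cells, which build the myelin sheath, 1 of 29 members was past the step, against 6.34% of all genes. It was Mvd, with 35.7 CPM in Treg_Penk_KO and 45.6 CPM in control, a ratio of 0.784 whose counting interval of 0.583 to 1.045 includes 1. Enzymes were above 1 for 7 of 18 there, with a median ratio of 0.986. In non-myelinating Schwann-like cells 1 of 6 members was past the step, against 13.2% of all genes. It was Insig1, with 376 CPM in Treg_Penk_KO and 493 CPM in control, a ratio of 0.762 with an interval of 0.610 to 0.9501. Red cell markers, 6 genes, summed to 0 CPM in Treg_Penk_KO and 925 CPM in control cells of this class, and their part was not tested. Apoe was on the other side in these cells, with 7308 CPM in Treg_Penk_KO and 6813 CPM in control.

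In fibroblast-like cells 2 of 18 members were past the step, against 9.58% of all genes. Of 11 enzymes with enough UMIs there 9 were below 1, against 51.6% of all genes. Macrophage markers were higher in these cells for 8 of 9 genes, summing to 233 CPM in Treg_Penk_KO and 165 CPM in control, and their part was not tested. Pmvk, phosphomevalonate kinase, had 88.7 CPM in Treg_Penk_KO and 69.6 CPM in control, a ratio of 1.27 with an interval of 0.958 to 1.69. Dhcr7 had 87.8 CPM in Treg_Penk_KO and 114 CPM in control, a ratio of 0.768 with an interval of 0.593 to 0.990. The ratio of Pmvk turned to 0.926 in cells thinned to 500 UMIs, and that of Mvd in endothelial-like cells to 1.04. In mural-like cells Apoe was the 1 member with enough UMIs, against 11.2% of all genes past the step, with 1899 CPM in Treg_Penk_KO and 2387 CPM in control, a ratio of 0.795 with an interval of 0.684 to 0.923. Without the cells of the highest doublet scores that ratio was 1.28, so its direction depends on those cells, and in cells of at least 1000 UMIs it was 0.556. Macrophage markers summed to 127 CPM in Treg_Penk_KO and 216 CPM in control mural-like cells, and satellite glia markers to 1624 CPM in Treg_Penk_KO and 1836 CPM in control, and their part was not tested.

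**Figure D3:**
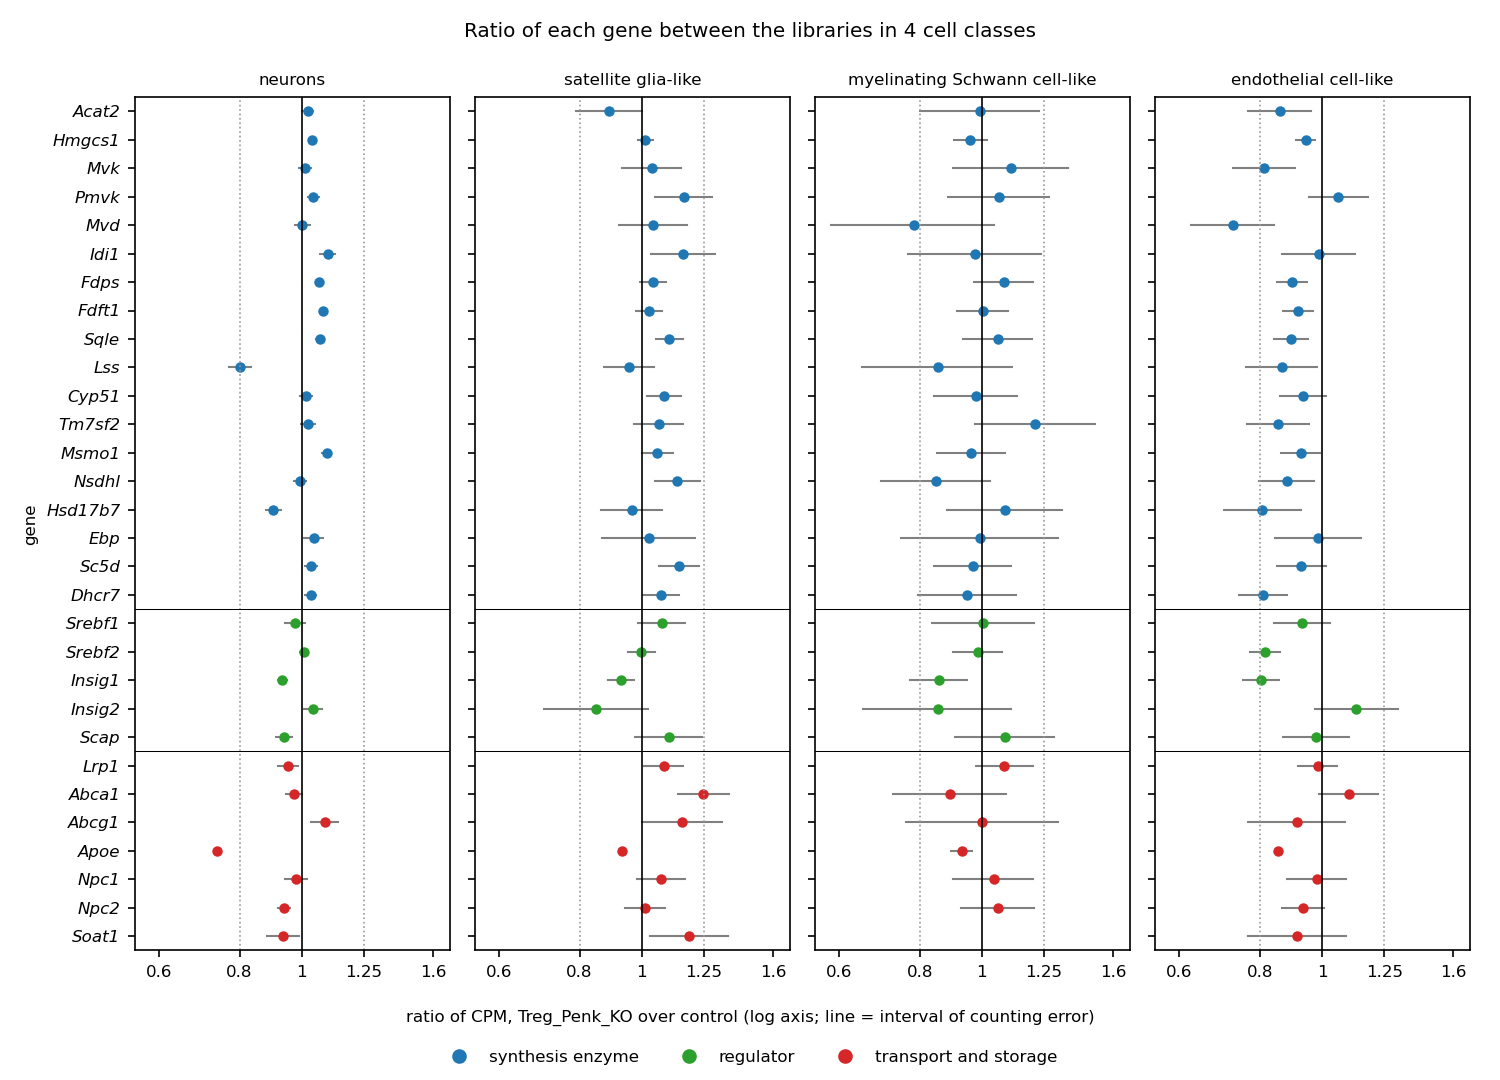
Ratios of CPM in Treg_Penk_KO over control for each member, on a log axis, with 95% counting intervals, in neurons and in satellite glia-like, myelinating Schwann-like and endothelial-like cells; dotted lines mark 0.8 and its inverse. Most endothelial points lie left of 1 and most satellite points right of 1, and Apoe in neurons, at 0.737, lies left of the dotted line.

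Apoe in neurons was the best-counted of the differences. It had 783 CPM in Treg_Penk_KO neurons and 1062 CPM in control neurons, a ratio of 0.737 with a counting interval of 0.732 to 0.743, on 100173 UMIs in Treg_Penk_KO and 225222 in control. The 8 satellite glia markers were all lower in Treg_Penk_KO neurons as well, summing to 357 CPM there and to 406 CPM in control neurons. Over the 14 neuron clusters Apoe followed those markers closely, with a Spearman's rho of 0.89 in Treg_Penk_KO and 0.96 in control, given as a description of clusters that share a library. In the neuron cluster with the most of both, a proprioceptor-like cluster, Apoe had 4539 CPM in Treg_Penk_KO and 4283 CPM in control. In 4 clusters, chosen after their values were seen, the satellite markers summed to at least 500 CPM in both libraries. These 4 clusters held 62.9% of the neuronal Apoe UMIs in Treg_Penk_KO and 74.3% in control. They gave 13.8% of all neuronal UMIs in Treg_Penk_KO and 21.0% in control.

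Cluster by cluster, Apoe was lower in Treg_Penk_KO in 9 of 14 neuron clusters and higher in 5. By named subtype it was past the step in C-LTMR-like neurons, with 256 CPM in Treg_Penk_KO and 368 CPM in control, and in peptidergic A-fibre-like neurons, with 1055 CPM in Treg_Penk_KO and 1555 CPM in control. Of the 2 peptidergic A-fibre-like clusters, however, neither was lower past the step. Apoe had 291 CPM in Treg_Penk_KO and 218 CPM in control in the larger one (ratio 1.33), and 3114 CPM in Treg_Penk_KO and 3531 CPM in control in the other (0.882). That Apoe-rich cluster held 87 of the 466 cells of the subtype in Treg_Penk_KO and 335 of 811 in control. C-LTMR-like and peptidergic A-fibre-like neurons are 2 of 9 subtypes, and 2.82% of all genes in C-LTMR-like and 4.96% in peptidergic A-fibre-like neurons were as much lower. In peptidergic C-like neurons Apoe had 751 CPM in Treg_Penk_KO and 760 CPM in control, and in Mrgpra3 or Mrgprb4-like neurons it had 380 CPM in Treg_Penk_KO and 356 CPM in control. The neuronal ratio was 0.857 with every cell weighted equally, 0.856 in cells thinned to 500 UMIs and 0.830 with subtypes weighted equally, all short of the step. It was 0.746 in droplets of 1 library only and 0.774 without the cells of the highest doublet scores. A cluster with 140 Treg_Penk_KO and 18 control cells and one with 87 Treg_Penk_KO and 335 control cells were mostly of 1 library, and without them the ratio was 0.752. Fewer satellite cells caught with neurons and less Apoe RNA per cell cannot be told apart here. With UMIs summed by class, the lower Apoe level was not limited to neurons. Over the 8 classes Apoe was below 1 in 7, with the counting interval below 1 in each of those, and above 1 in 1. It had 26672 CPM in Treg_Penk_KO and 28627 CPM in control satellite glia-like cells. Within that class the deep cluster was lower in Treg_Penk_KO (28802 CPM, 31383 CPM in control). The shallow cluster, with most of the cells, was higher (22588 CPM in Treg_Penk_KO, 21758 CPM in control). Of the myelinating Schwann-like clusters, 1 was higher (2541 CPM in Treg_Penk_KO, 2420 CPM in control) and the other lower (1619 CPM and 2051 CPM). Endothelial-like cells had 9056 CPM of it in Treg_Penk_KO and 10584 CPM in control.

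**Figure D4:**
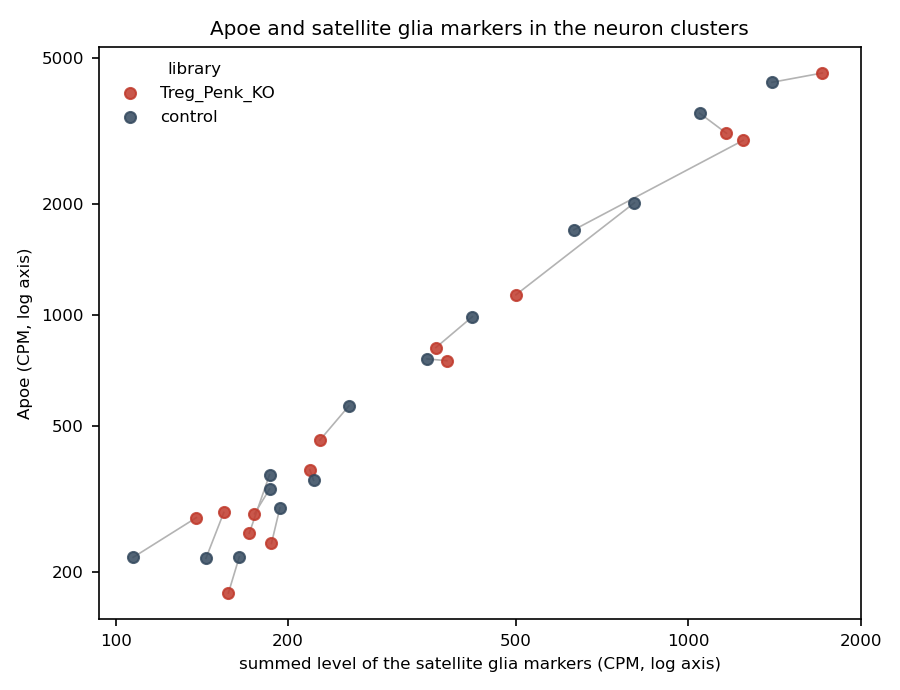
Apoe CPM (log axis) against the summed CPM of 8 satellite glia markers (log axis) in 14 neuron clusters, with each cluster's Treg_Penk_KO and control points joined by a line. Clusters with more satellite marker RNA had more Apoe in both libraries, up to 4539 CPM in Treg_Penk_KO and 4283 CPM in control.

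Lss was the enzyme furthest below 1 in neurons. It had 29.6 CPM in Treg_Penk_KO and 36.9 CPM in control neurons, a ratio of 0.802 with an interval of 0.771 to 0.833, just short of the step. With the 9 subtypes weighted equally it was 0.749, past the step. It was below 1 in 9 of 9 subtypes and past the step in 6 of them. In Trpm8 cold-like neurons the ratio was 0.636 with 48.6 CPM in Treg_Penk_KO and 76.4 CPM in control (3.79% of all genes were that much lower), and in Mrgprd-like neurons, with 44.8 CPM in Treg_Penk_KO and 62.4 CPM in control, it was 0.719 (4.1% of all genes). It was 0.728 in C-LTMR-like, 0.707 in Mrgpra3 or Mrgprb4-like (3.27% of all genes), 0.773 in peptidergic A-fibre-like and 0.757 in peptidergic C-like neurons (2.61% of all genes). Proprioceptor-like neurons had the smallest gap, with 31.1 CPM in Treg_Penk_KO and 32.1 CPM in control. In the other classes with enough UMIs Lss was also below 1, at 0.956 in satellite glia-like, 0.854 in myelinating Schwann-like and 0.865 in endothelial-like cells, none past the step. In neurons thinned to 500 UMIs its ratio was 0.809 with an interval of 0.624 to 1.044.

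Insig1 was below 1 in 7 of 7 classes with enough UMIs and in 9 of 9 neuron subtypes. Its ratios over the classes ran from 0.762 in non-myelinating Schwann-like cells to 0.933 in neurons and in macrophage-like cells, and it was past the step in 1 class and in 0 subtypes. In satellite glia-like cells, where it was highest, the 653 CPM in Treg_Penk_KO and 703 CPM in control differed by a ratio of 0.928. Hsd17b7 was likewise below 1 in 9 of 9 subtypes, with a ratio of 0.903 over all neurons. Pmvk ran the other way, above 1 in 5 of 5 classes, with ratios from 1.04 in neurons to 1.27 in fibroblast-like cells. Other members were nearly as uniform: Srebf2 was below 1 in 6 of 7 classes and 8 of 9 subtypes, and Apoe in 7 of 8 and 8 of 9. The share of all genes with 1 direction throughout is not given, so how unusual this is cannot be said. The classes come from the same 2 pools of cells, so the same direction in several of them is not independent.

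Other genes of sterol handling, 31 on a wider list, were counted in the same way. In neurons 0 of 30 with enough UMIs were higher and 1 was lower past the step, against 5.32% of all genes in either direction. In satellite glia-like cells 0 of 22 were past it, against 5.13% of all genes, and in endothelial-like cells 0 of 24, against 5.01%. These counts are near the share over all genes. The lower gene in neurons was Apod, a lipocalin that binds cholesterol and other lipids and that Schwann cells and fibroblasts make. Apod was past the step in 3 classes. It had 303 CPM in Treg_Penk_KO and 383 CPM in control neurons, 9322 CPM in Treg_Penk_KO and 12656 CPM in control myelinating Schwann-like cells, and 2026 CPM in Treg_Penk_KO and 2579 CPM in control mural-like cells. In fibroblast-like cells, where Apod was highest, it had 46987 CPM in Treg_Penk_KO and 46110 CPM in control.

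In macrophage-like cells all 9 of the other sterol genes with enough UMIs were below 1, against 51.8% of all genes. Of the 9, 2 were lower past the step, against 5.59% of all genes that much lower. One is the sterol and lipid transporter Abca2, with 95.7 CPM in Treg_Penk_KO and 134 CPM in control. Satellite glia markers were higher in these macrophage-like cells, with 942 CPM in Treg_Penk_KO and 741 CPM in control, red cell markers were lower, with 10.4 CPM in Treg_Penk_KO and 96.4 CPM in control, and their part was not tested. Genes of fatty acid synthesis, also under SREBP control, were below 1 for 13 of 14 in endothelial-like cells, against 49.0% of all genes, with a median ratio of 0.921, and 0 of 14 were past the step, against 5.01% of all genes. In neurons 6 of 15 were above 1, against 48.1% of all genes, and 0 of 15 were past the step, against 5.32%. In fibroblast-like cells 1 of 10 was past it, against 9.58% of all genes, and it was Acaca (147 CPM in Treg_Penk_KO, 183 CPM in control). In non-myelinating Schwann-like cells it was 1 of 6, Fads1 (331 CPM in Treg_Penk_KO, 429 CPM in control), against 13.2% of all genes. In macrophage-like cells it was 1 of 9, Fads2 (92.3 CPM in Treg_Penk_KO, 117 CPM in control), against 12.4%.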

How the data were processed

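The authors deposited raw UMI counts per gene and barcode for 2 libraries. Reads were aligned to GRCm39 with Cell Ranger 7.0 per the labels' protocols, while the file headers name 8.0.1, and Seurat is listed, per the submitters' processing notes, without its use. The study's text says nuclei and the labels say fixed cells. Barcodes under 500 UMIs or 300 genes were dropped, which left 12053 Treg_Penk_KO and 15690 control cells. They were clustered together with scanpy 1.11.5 on 3000 variable genes without the members, 40 principal components, 15 neighbours and Leiden resolution 1.0. Marker lists named clusters, with limits set after clusters were seen. Scrublet's automatic threshold marked 3 and 0 cells and so did not work, and no doublets were removed. From the droplet barcodes shared by the libraries, multiplets were estimated at 16.8% of cells in Treg_Penk_KO and 22.8% in control. UMIs were summed per library and class. CPM have exact Poisson and ratios exact conditional binomial intervals. They were checked on simulated counts drawn with Poisson error alone, so that check could not show variation between cells or pools. Intervals cover counting error only. Ratios are given in full for members past the step of 0.8 or its inverse. Levels in the highest class are given for all members but Pmvk, Mvd, Idi1, Fdps, Fdft1, Hsd17b7 and Ebp. The members and lists were chosen with earlier results of these data known. Clusters in which no marker list led (such as a mixed glial and a globin-led cluster) and the few meningeal-like cells were not among the 8 classes. Levels were read again under 15 other settings, 3 of them chosen after seeing the data. Values of some genes on the wider list are not reported here.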

Additional observations from a re-analysis of the deposited data

How the results depend on the processing

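Of the member and class pairs, 1 was higher and 6 were lower past the step in Treg_Penk_KO, and 27 members had the same highest class in both libraries. The number higher was 16 at Leiden resolution 0.5 and 0 at 2.0, 6 in droplets of 1 library only, 14 in cells thinned to 500 UMIs, 5 with cells weighted equally, 5 with a floor of 100 UMIs and 0 with 500, 2 with members among the variable genes, 2 with ratios centred on the median gene, and 3 without the highest Scrublet scores. The number lower was 10 at resolution 2.0, 16 in thinned cells, 10 and 3 with floors of 100 and 500 UMIs, 15 with members among the variable genes, and 13 without the highest Scrublet scores. Among settings chosen after seeing the data, taking out the neuronal share gave 3 higher and 32 lower, and leaving out the deep satellite cluster gave 3 higher. The cause of these shifts was not tested. In satellite glia-like cells the median enzyme ratio was 1.23 at resolution 0.5. In endothelial-like cells it was 0.814 with members among the variable genes and 0.791 with the neuronal share out. Changes of direction were followed only for the pairs past the step and for the median enzyme ratios in neurons, satellite glia-like and endothelial-like cells. Of these, Pmvk in fibroblast-like cells (0.926) and Mvd in endothelial-like cells (1.04) changed direction in thinned cells. Apoe in mural-like cells did so without the highest Scrublet scores (1.28). The directions of the other pairs under these settings are not given. The number of members with the same highest class lay between 20 and 28 under the settings that could change it. No paired analysis was possible because each genotype has 1 library. For most members outside neurons, satellite glia-like and endothelial-like cells, low UMI totals limit what can be seen.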
